A study of Mus musculus with 40 samples.

Results

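The major urinary protein genes Mup3, Mup4, Mup5, Mup20 and Mup21 were followed in mouse liver after 90 days of exposure to GenX. These 5 genes, of the 21448 gene symbols on the assay, were selected on their names from a list that was drawn up with earlier results of the dose comparisons known. For that reason, their changes with dose are given below as a description, without a p-value. The 5 symbols had 8 probes, of which 5 probes for 4 genes gave reads and passed the filter on low counts. The 3 other probes, 2 for Mup4 and the only probe for Mup5, had no read in any of the 40 livers. A further 16 probes for 10 other Mup symbols are given as context. GenX is an ammonium salt of a short perfluoroalkyl ether acid. Wildtype Crl:CD1(ICR) mice, an outbred stock that was housed individually, received it by oral gavage at daily doses of 0.1, 0.5 and 5 mg per kg of body weight (mg/kg below), and the control mice (0 mg/kg) received the vehicle, deionized water. The 8 groups (4 per sex) held 5 mice each, and 1 liver section per mouse, fixed in formalin and embedded in paraffin, was measured with TempO-Seq, in which pairs of short probes are joined on their target RNA and then sequenced and counted. Mice are named by their animal number, and mouse 355 (female, 0.5 mg/kg) was left out because of its low depth, so that this group held 4.

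Major urinary proteins are small lipocalins, barrel-shaped carriers of volatile odorants, that the liver of the mouse secretes in large amounts and the kidney passes into the urine, where they serve in scent marking. Their transcription in hepatocytes depends on the pulsed release of growth hormone acting through its receptor and STAT5, on glucocorticoids and on liver-enriched transcription factors, and it is known to be higher in males than in females. The family lies in 1 gene cluster with a central block of nearly identical copies and more divergent genes toward its ends. Mup20 encodes darcin, a male sex pheromone. Mup4 and Mup5 are known mainly from glands outside the liver, Mup4 from tear glands and the nasal lining and Mup5 from salivary glands.

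All 5 genes lie on chromosome 4 (GRCm38, the same sequence as mm10) on the minus strand, and each has 6 coding exons. The gene bodies run from 62083476 to 62087342 for Mup3 (ENSMUSG00000066154.11), 59956804 to 59960710 for Mup4 (ENSMUSG00000041333.6), 61831319 to 61835233 for Mup5 (ENSMUSG00000058523.2), 62050234 to 62054158 for Mup20 (ENSMUSG00000078672.2) and 62147932 to 62150863 for Mup21 (ENSMUSG00000066153.2). By global alignment of their coding sequences, Mup3 and Mup21 were the closest pair, with 96.3% identity, and Mup4 and Mup5 followed at 93.1%. The other pairs among the 5 lay between 85.8% and 91.7%. Against the 17 other annotated Mup genes, Mup3 reached 83.8% to 86.1% and Mup20 89.6% to 91.5%, whereas the median identity between those other genes was 99%. The 60-base coding stretch with the most variable positions, 21, is shown here because it separates the Mup3 and Mup21 pair from the rest. Capitals mark bases that differ from the most common base of the 5 genes at that position, and at 1 position with a tie the base shared by Mup3 and Mup21 was left in lower case.
Mup3: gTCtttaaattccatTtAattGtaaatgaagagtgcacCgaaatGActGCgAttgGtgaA
Mup4: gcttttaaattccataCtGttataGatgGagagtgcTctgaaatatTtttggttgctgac
Mup5: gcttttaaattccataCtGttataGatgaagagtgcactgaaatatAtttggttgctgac
Mup20: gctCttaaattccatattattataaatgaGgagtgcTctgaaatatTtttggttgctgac
Mup21: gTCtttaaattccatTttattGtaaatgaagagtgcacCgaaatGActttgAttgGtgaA
In the whole coding sequence, 75.5% of the 50-base windows of Mup3 and 75.7% of those of Mup21 occur in no other Mup gene, against 93.6% for Mup4, 92.3% for Mup5 and 95.3% for Mup20. The deposited counts pair probes with symbols and not with sequences, so which copies a probe can bind was not tested. Older names of this family also cross between genes (Mup3 has been used for the gene now called Mup7, and Mup4 for Mup2), so a symbol here means the one that the count file gives.

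Promoters were held in the RefSeq table for 14 Mup genes, 3 of the 5 genes among them. Those of Mup3 and Mup4 are printed because these genes, with the most reads of the 5, went apart in males at 0.5 mg/kg. Each runs from 250 bases before the start site to 50 after it, on the minus strand of GRCm38.p6 (chr4:62087268-62087567 for Mup3 and chr4:59960618-59960917 for Mup4), and capitals mark the letters TATATAA.
Mup3: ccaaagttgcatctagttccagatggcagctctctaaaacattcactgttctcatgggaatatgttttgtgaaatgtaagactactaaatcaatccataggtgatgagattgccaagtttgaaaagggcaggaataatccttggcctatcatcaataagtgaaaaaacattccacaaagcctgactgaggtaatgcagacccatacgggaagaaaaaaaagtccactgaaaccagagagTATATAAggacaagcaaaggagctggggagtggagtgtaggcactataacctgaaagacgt
Mup4: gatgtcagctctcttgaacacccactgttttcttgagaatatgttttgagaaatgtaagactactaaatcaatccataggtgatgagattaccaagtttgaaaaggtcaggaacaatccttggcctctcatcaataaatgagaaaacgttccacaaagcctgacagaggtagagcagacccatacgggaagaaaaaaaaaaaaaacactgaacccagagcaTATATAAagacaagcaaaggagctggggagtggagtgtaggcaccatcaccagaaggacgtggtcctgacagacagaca
The aligned bases of the Mup3 and Mup4 promoters were 89.2% identical, and those of Mup3 and Mup21 93.9%. The letters TATATAA, searched on both strands after the sequences had been seen, stood in 13 of the 14 Mup promoters and in 3.24% of the 32851 promoters of the table. They began 11 bases before the RefSeq start site in Mup3 (at -11) and at -29 in Mup4. These start sites, 62087317 for Mup3 and 59960667 for Mup4, lie inside the gene bodies given above, which are those of GENCODE. The letters therefore lie inside those gene bodies too. The motif TTCNNNGAA, which STAT5 can bind, was in 8.3% of all promoters and in 0 of the 14, and AGGTCA repeated with 1 base between (a DR1 element, which PPARα can bind) was in 0.0396% and in 0 of the 14. These counts say only which letters stand in these windows.

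The 39 libraries held 10341341 to 15562253 reads. Counts within a library clustered at multiples of 21 to 45 reads, a step taken here as 1 captured molecule, so that a library stood for 284218 to 649658 molecules. The control males lay at 284218 to 367656 molecules and the males at 5 mg/kg at 489778 to 649658, and the part of this difference in the results below was not tested. Reads on the Y-linked Ddx3y were found in 20 of 20 males and in 0 of 20 females. All 5 hepatocyte markers (Alb, Ttr, Apoa1, Tat and Cps1) had reads in every library, whereas none of the 4 lymphocyte markers and none of the 4 red cell markers did.

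The family as a whole took up a large part of the liver RNA that the assay captured, and less of it in males at the highest dose. In control males, reads on all 24 Mup probes made up 13.04%, 11.35%, 12.06%, 10.96% and 14.46% of the library in mice 101 to 105. At 0.1 and 0.5 mg/kg the male groups spanned 11.6% to 16.1% and 11.5% to 13.2%, and both overlapped the controls. At 5 mg/kg the 5 males lay between 3.91% and 5.45%, below every control male. Control females ranged from 3.39% to 8.66%, and females at 5 mg/kg from 2.75% to 8.12%, so these groups overlapped. In a bulk sample, fewer hepatocytes and less Mup RNA per hepatocyte cannot be told apart. The 5 hepatocyte markers together went from 29464 to 36061 CPM (the usual scaled unit, in which the reads of a probe are set against the total of the library) in control males to 17430 to 24313 in males at 5 mg/kg, and from 22227 to 38705 in control females to 14743 to 24057 in females at 5 mg/kg. Of the 5 markers, 2 were lower in males at 5 mg/kg at a false discovery rate of 10%, where 8.28% of all tested probes passed in either direction. In females at 5 mg/kg 2 were lower as well, where 3.66% of all tested probes passed. The part of the shift in these markers in the Mup results was not tested.

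**Figure D1:**
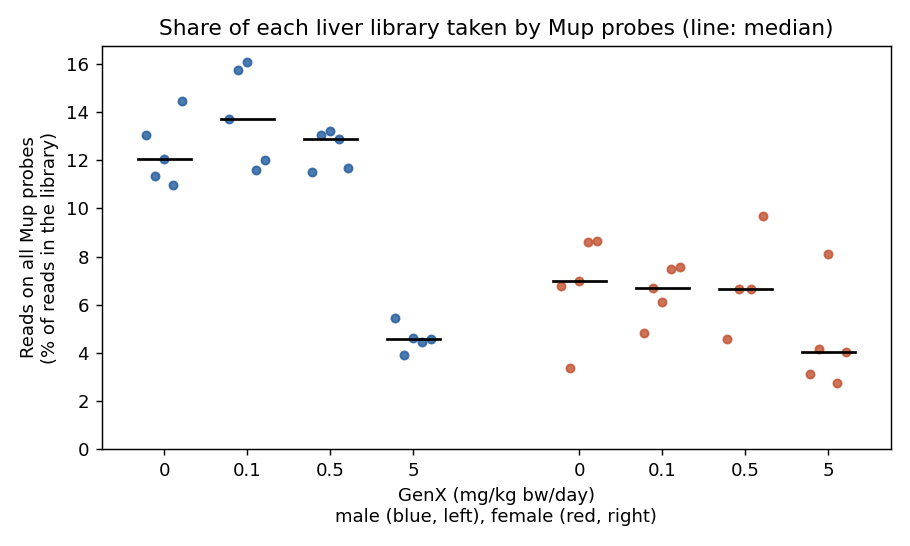
Share of the reads of each library that fell on the 24 Mup probes (y axis, percent) by GenX dose (x axis, mg/kg bw/day) in males (blue) and females (red). Each point is 1 liver and the line is the group median. The males at 5 mg/kg sit between 3.91% and 5.45%, below all other male livers.

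In males at 5 mg/kg, Mup3 had the largest change of the 5 genes. Its more heavily read probe, Mup3_29559, gave 9752, 7586, 14169, 11719 and 11410 CPM (scaled by TMM) in the control males 101 to 105. The values were 12661, 9384, 12406, 5626 and 6621 CPM in males 201 to 205 at 0.1 mg/kg, and 5381, 4452, 3994, 4427 and 4321 CPM in males 301 to 305 at 0.5 mg/kg. Males 401 to 405, at 5 mg/kg, gave 784, 465, 938, 1263 and 568 CPM. The groups at 0.5 and 5 mg/kg lay wholly below the controls and did not overlap each other, whereas the group at 0.1 mg/kg was split, with mice 204 and 205 below every control and the other 3 within their range. The log2 fold change against control males was -0.23 ± 0.31 (SE, n = 5 per group) at 0.1 mg/kg and -1.28 ± 0.31 at 0.5 mg/kg. At the highest dose it reached -3.77 ± 0.34, a level 13.6-fold lower.

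The other Mup3 probe, Mup3_80493, followed at 5 mg/kg but not at 0.5 mg/kg. Control males gave 1368, 857, 1423, 1371 and 1431 CPM, with mouse 102 far below the other 4. Males at 0.5 mg/kg gave 1337, 983, 903, 1063 and 1062 CPM and overlapped the controls, and males at 5 mg/kg gave 147, 117, 224, 347 and 181 CPM, all below them. The log2 fold change was -0.27 ± 0.29 at 0.5 mg/kg and -2.67 ± 0.31 at 5 mg/kg.

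**Figure D2:**
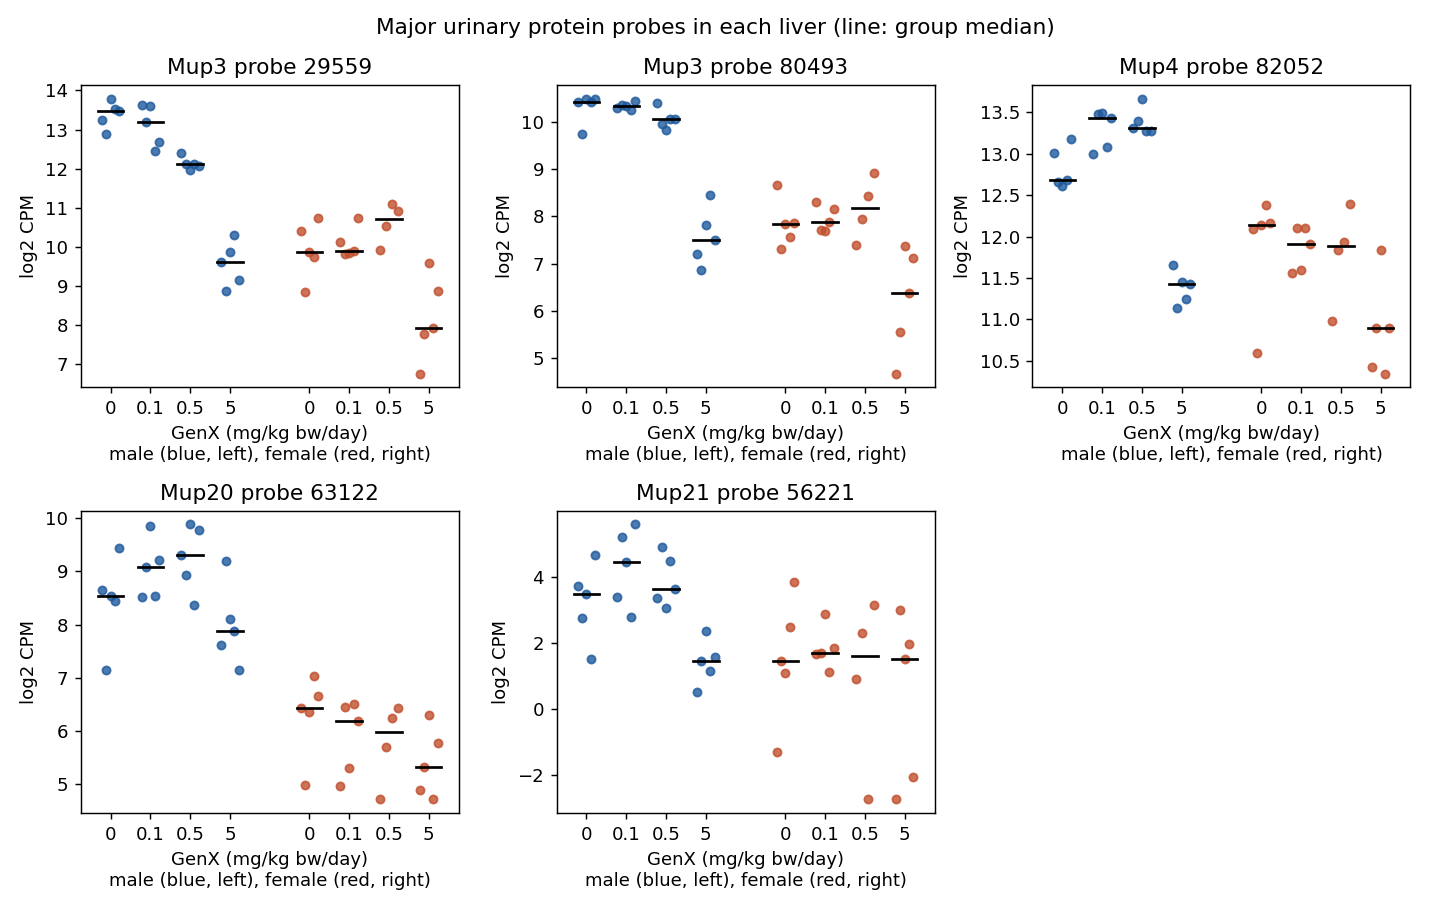
Level of the 5 member probes with reads (y axes, log2 CPM with a prior count of 2) by GenX dose (x axes, mg/kg bw/day) in males (blue) and females (red), with 1 point per liver and the group median as a line. Mup3_29559 steps down in males from a median of 11410 CPM in controls to 4427 at 0.5 mg/kg and 784 at 5 mg/kg, while Mup4 and Mup20 do not step down before 5 mg/kg.

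Mup4 took another course. Control males gave 8231, 6438, 6239, 6587 and 9244 CPM on Mup4_82052, and males at 0.5 mg/kg gave 10148, 10739, 12969, 9926 and 9912 CPM, all above the controls. At 5 mg/kg the values were 3227, 2246, 2791, 2431 and 2759 CPM, all below them. The log2 fold change was 0.47 ± 0.22 at 0.1 mg/kg and 0.55 ± 0.22 at 0.5 mg/kg. It was -1.45 ± 0.22 at the highest dose, a level 2.73-fold lower. This course was not particular to Mup4. Among the other Mup probes, Mup7_82401 and Mup19_82400 also lay wholly above control males at 0.5 mg/kg and wholly below them at 5 mg/kg, whereas Mup13_70516 overlapped the controls at 0.5 mg/kg.

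Mup20, the gene of darcin, had no group of treated males that stood apart from the controls. Control males gave 400, 142, 373, 347 and 698 CPM. At 0.5 mg/kg the males gave 635, 490, 944, 332 and 877 CPM, and at 5 mg/kg 195, 587, 275, 236 and 142 CPM, with mouse 402 high. The log2 fold change was 0.74 ± 0.37 at 0.5 mg/kg and -0.45 ± 0.36 at 5 mg/kg. Mouse 402 was high for Mup20 alone of the member probes, and had the lowest values of its group for both Mup3 probes and for Mup4.

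Mup21 was read at very low levels. Its counts corresponded to between 0 and 19.3 captured molecules per library, against 448 to 6433 for Mup4_82052, so counting alone makes its values coarse. Control males gave 13.1, 6.64, 10.996, 2.70 and 25.2 CPM and males at 5 mg/kg 1.28, 2.61, 5.03, 2.06 and 2.81 CPM. The groups overlapped, and the log2 fold change was -2.08 ± 0.93. For the probe of Mup5, no read allows up to 4.62 to 10.6 CPM per library (3 captured molecules, counting error only). This limit is one of the probe and not of the gene, since 2 of the 3 probes for Mup4 also had no read.

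**Figure D3:**
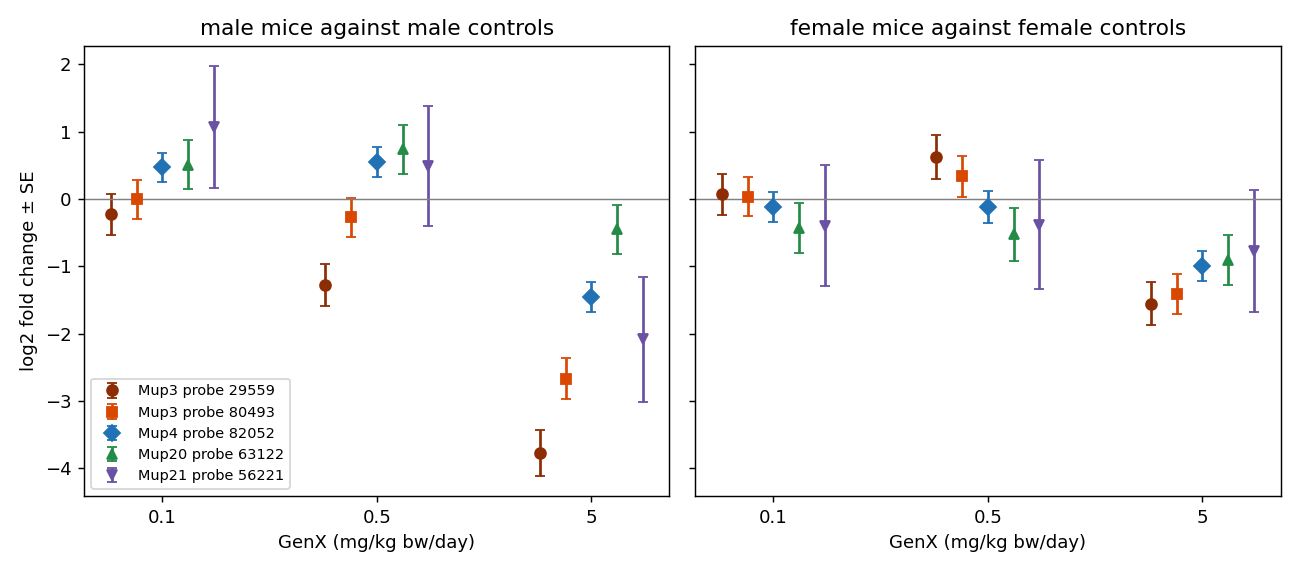
Log2 fold change against control mice of the same sex (y axis, points, with the SE as bars) of the 5 member probes at each GenX dose (x axis, mg/kg bw/day), in males (left) and females (right). In males at 0.5 mg/kg, Mup3_29559 lies at -1.28 and Mup4_82052 at 0.55, and at 5 mg/kg the 5 probes spread from -3.77 to -0.45.

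Read counts can also be set against each other within 1 library, which does not depend on how libraries were scaled. The ratio of Mup3_29559 to Mup3_80493 was 7.13 to 9.96 in control males. It was 10.1, 7.22, 9.7, 4.63 and 4.76 in males 201 to 205, 4.02 to 4.53 at 0.5 mg/kg and 3.14 to 5.34 at 5 mg/kg. The probes for this 1 symbol were thus not read in a constant proportion, and the ratio of the treated males at both higher doses lay below every control male. In control females it was 2.91 to 7.32. The ratio of Mup3_29559 to Mup4_82052 was 1.18 to 2.27 in control males, 0.308 to 0.53 at 0.5 mg/kg and 0.206 to 0.519 at 5 mg/kg. In males 201 to 205, at 0.1 mg/kg, it was 1.55, 0.819, 1.07, 0.65 and 0.598, and only mouse 201 was within the range of the controls. The groups at 0.5 and 5 mg/kg lay below every control male. They overlapped each other, through mouse 404 (0.519) and mouse 403 (0.336), while the 3 other males at 5 mg/kg had 0.206 to 0.243. In females, this ratio was 0.163 to 0.372 in controls and 0.0785 to 0.247 at 5 mg/kg.

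**Figure D4:**
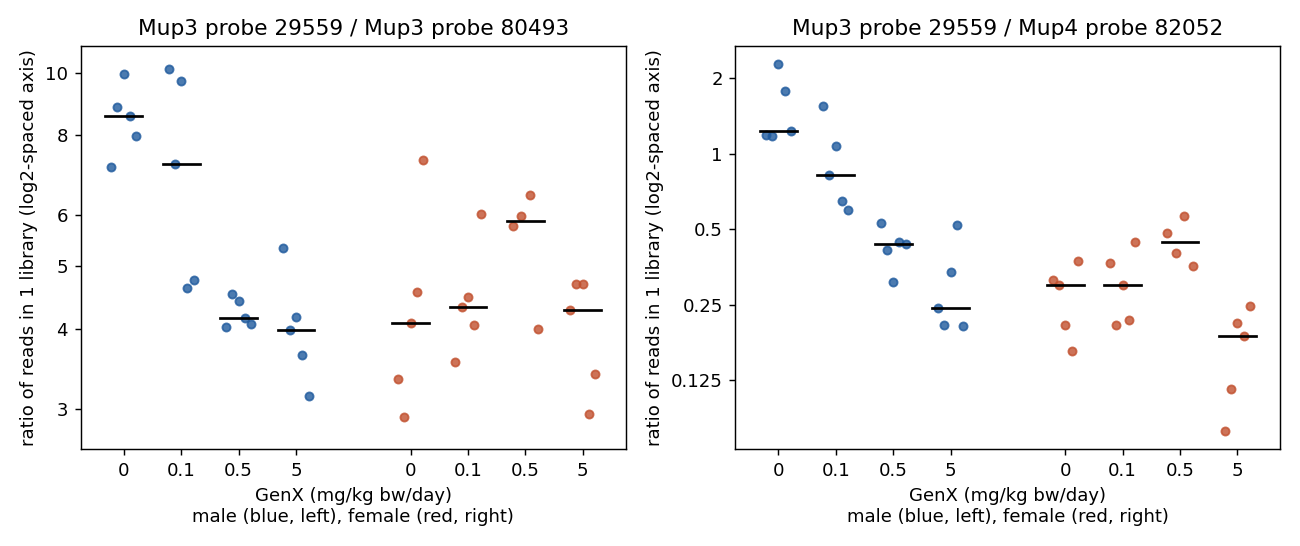
Ratio of the reads on Mup3_29559 to those on Mup3_80493 (left) and on Mup4_82052 (right) within each library (y axes, log2-spaced) by GenX dose (x axes, mg/kg bw/day), in males (blue) and females (red), with 1 point per liver and the group median as a line. Both ratios are lower in males at 0.5 mg/kg than in control males, the left one at 4.02 to 4.53. The right one has a median of 0.819 in males at 0.1 mg/kg, against 1.23 in control males.

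In females, Mup3, Mup4 and Mup20 stood at lower levels in the controls. The log2 fold changes at 5 mg/kg were nearer to 0 than in males for both Mup3 probes, Mup4 and Mup21, and farther from 0 for Mup20. Mup3_29559 gave 1359, 463, 939, 865 and 1708 CPM in control females 151 to 155. Females 451 to 455, at 5 mg/kg, gave 108, 220, 773, 244 and 472 CPM, which overlapped the controls through mice 453 and 455 and the low control 152. The log2 fold change was -1.55 ± 0.31 for Mup3_29559, -1.41 ± 0.29 for Mup3_80493 and -0.999 ± 0.22 for Mup4_82052. For Mup20 it was -0.91 ± 0.37 and for Mup21 -0.77 ± 0.90. At 0.5 mg/kg, where 4 females remained, the values were 0.62 ± 0.32 for Mup3_29559 (970, 1473, 2206 and 1920 CPM), 0.34 ± 0.30 for Mup3_80493 and -0.12 ± 0.23 for Mup4_82052. At 0.1 mg/kg the 5 probes lay between -0.43 and 0.07.

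The counts of member genes past the 10% threshold of the false discovery rate are given beside the share of all 17877 tested probes past it. A gene counts when any of its probes passes, so Mup3, with 2 probes, and the share per probe are unlike units. As the members were chosen with these comparisons known, nothing is read from the counts. In males, 0 of the 4 genes passed at 0.1 mg/kg (0.0336% of all probes), 1 at 0.5 mg/kg (Mup3, through Mup3_29559 alone, 2.38%) and 2 at 5 mg/kg (Mup3 and Mup4, 8.28%). In females the numbers were 0 at 0.1 mg/kg (0% of all probes), 0 at 0.5 mg/kg (0.213%) and 2 at 5 mg/kg (Mup3 and Mup4, 3.66%). DESeq2 also called 0 of the 4 genes where edgeR called 0. At an unadjusted p under 0.05, edgeR had 1 of the 4 genes (Mup4) and 2435 of all probes in males at 0.1 mg/kg. For females it had 0 genes at both lower doses, with 1843 of all probes at 0.1 mg/kg and 1826 at 0.5 mg/kg. The call of Mup3 in males at 0.5 mg/kg was lost when mouse 355 was kept in the fit. The female change minus the male change for Mup3_29559 (in log2 units) was 1.90 ± 0.45 at 0.5 mg/kg, and at 5 mg/kg it was 2.21 ± 0.44. For Mup3_80493 the values were 0.61 ± 0.42 and 1.26 ± 0.41. Of the 4 genes, 0 passed for this difference at 0.1 mg/kg (0% of all probes), 1 at 0.5 mg/kg (0.274%) and 1 at 5 mg/kg (1.04%), Mup3 in both cases. At an unadjusted p under 0.05, 0 of the 4 genes and 1504 of all probes differed in response at 0.1 mg/kg. All dose comparisons within a sex share its control mice. Over all tested probes, the median log2 fold change in males at 5 mg/kg was 0.10 with TMM scaling. It was 0.09 when the scaling left out the Mup probes and 0.03 with the size factors of DESeq2. The changes of the Mup probes at that dose are to be read against these medians.

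The rule that lists the genes sets doses against each other within a sex and does not set the sexes against each other, although the values behind the choice of the genes are not known in full. The difference between the sexes was tested with the edgeR quasi-likelihood test, with adjustment over all probes. At the 3 GenX doses this difference also holds the known dose changes of the same livers, so that those tests are not independent of the choice. The test in control mice uses the livers that were the reference of the known dose comparisons, so it is not fully independent of the choice either. In control mice, 3 of the 4 genes were lower in females, against 3.49% of all probes that differed in either direction. Mup3_29559 was 10.2-fold lower in females (log2 difference of -3.36 ± 0.34, adjusted p = 4.25e-10, n = 5 per group). Mup3_80493 was 5.29-fold lower (-2.40 ± 0.30, adjusted p = 1.67e-07), Mup20 4.55-fold lower (-2.19 ± 0.38, adjusted p = 0.000124) and Mup4 1.81-fold lower (-0.85 ± 0.22, adjusted p = 0.0198). For these 4 probes the values of control males and control females did not overlap, even though Mup20 ranged from 142 to 698 CPM in the males. The share of all tested probes whose groups separate in this way is not given, here or below, so nothing more is read from the separation. For Mup21 the difference was -1.25 ± 0.91 (adjusted p = 0.631), with overlapping groups. The call of Mup4 was lost with mouse 355 in the fit (adjusted p = 0.365, with a range of 2.17e-07 to 0.365 over its 18 alternatives).

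At the 2 lower doses the difference persisted in the same 3 genes. At 0.1 mg/kg (1.83% of all probes differed) it was -3.06 ± 0.33 for Mup3_29559 (adjusted p = 5.50e-09), -3.12 ± 0.39 for Mup20 (adjusted p = 2.21e-07) and -1.44 ± 0.22 for Mup4 (adjusted p = 1.86e-05). With mouse 355 in the fit, Mup4 did not pass at 0.1 mg/kg (adjusted p = 0.199, with a range of 1.49e-18 to 0.199 over its 18 alternatives). At 0.5 mg/kg (1.14% of all probes differed) it was -1.46 ± 0.34 for Mup3_29559 (adjusted p = 0.0123), -1.79 ± 0.32 for Mup3_80493 (adjusted p = 0.000387), -3.45 ± 0.44 for Mup20 (adjusted p = 5.22e-07) and -1.52 ± 0.24 for Mup4 (adjusted p = 4.92e-05). The call of Mup3_29559 at 0.5 mg/kg was lost without mouse 351 (adjusted p = 0.108, with a range of 2.64e-10 to 0.108 over its 17 alternatives). Males lay above females in every pair of mice for the probes of these genes at both doses.

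At 5 mg/kg, 2 genes passed, against 1.86% of all probes. Mup20 was 6.26-fold lower in females (-2.65 ± 0.39, adjusted p = 1.01e-05), and the 142 to 587 CPM of the males did not overlap the 26.03 to 78.9 CPM of the females. The differences for Mup3_29559 (-1.14 ± 0.31, adjusted p = 0.0451) and Mup3_80493 (-1.15 ± 0.29, adjusted p = 0.0253) were smaller, and their groups overlapped. Both calls were lost without male 404 (adjusted p = 0.214 and 0.187), without female 451 (0.185 and 0.114), without female 452 (0.151 and 0.109), with mouse 355 (0.397 and 0.396) and with only these 2 groups in the fit (0.237 and 0.251). That of Mup3_29559 was also lost without male 403 (adjusted p = 0.119) or female 454 (0.159). Over all 18 alternatives the adjusted p ranged from 1.10e-07 to 0.397 for the first probe and from 1.72e-06 to 0.396 for the second. Mup4 did not pass (-0.40 ± 0.22, adjusted p = 0.418), and passed without female 453 (-0.73, adjusted p = 0.0839, with a range of 0.0839 to 1 over its 18 alternatives). Mup20 was thus the member whose difference between the sexes was largest at 5 mg/kg, and it passed in each of its 18 alternatives there (adjusted p of 3.48e-18 to 0.0163).

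**Figure D5:**
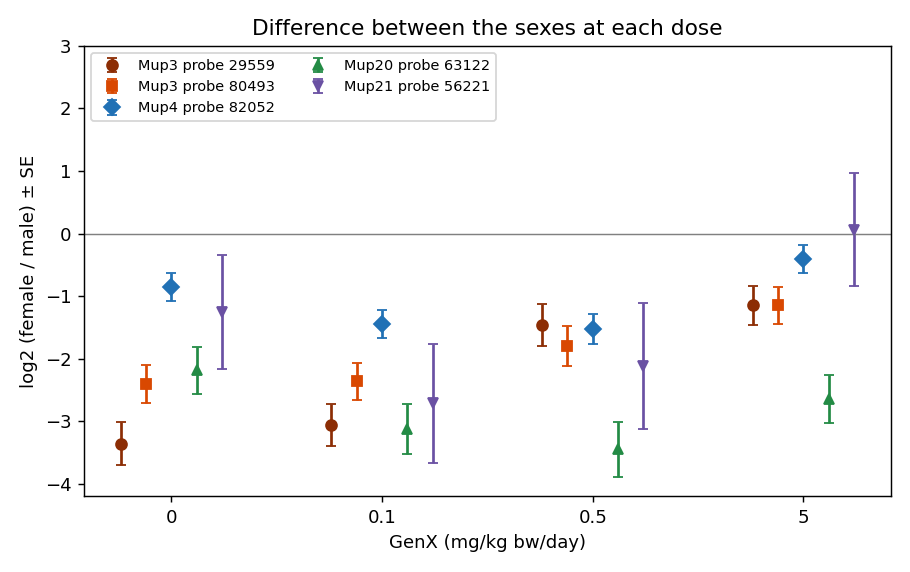
Log2 of the female to the male level (y axis, points, with the SE as bars) of the 5 member probes at each GenX dose (x axis, mg/kg bw/day, 0 for the controls). Mup20_63122 stays between -3.45 and -2.19 at all doses, whereas Mup3_29559 goes from -3.36 in controls to -1.14 at 5 mg/kg.

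Ordered by the group medians, Mup3_29559 stood at 11410 CPM in control males, 9384 in males at 0.1 mg/kg and 4427 in males at 0.5 mg/kg. Then came females at 0.5 mg/kg (1696), 0.1 mg/kg (959) and 0 mg/kg (939), males at 5 mg/kg (784) and females at 5 mg/kg (244). Of these neighbours, the first and second did not differ beyond their spread, and neither did the last 5 in sequence, whereas the steps on either side of the males at 0.5 mg/kg were free of overlap. For Mup20 the 4 male groups (medians of 236 to 635 CPM) stood above the 4 female groups (39.995 to 85.8 CPM) and the only step without overlap was that between males at 5 mg/kg and control females. For Mup4 the males at 0.1 and 0.5 mg/kg came first (11075 and 10148 CPM), then control males (6587) and control females (4524). Control males overlapped the males at 0.1 mg/kg, but neither those at 0.5 mg/kg nor the control females. The 8 groups of Mup21 overlapped each neighbour.

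The other Mup probes give the setting for these changes, and 15 of their 16 probes were tested. Some of the 15 were read near the floor but count equally below. The highest count in any library was 24 reads for Mup7_31616, 20 for Mup19_32084, 44 for Mup12_65786 and 52 for Mup10_68906. These counts are close to the step taken as 1 captured molecule. The direction of these probes is therefore coarse, and the numbers of probes higher or lower and the medians below include them. In males at 0.5 mg/kg, 10 of the 15 were higher and 5 lower, and 2 passed the threshold (2.38% of all probes). They were Mup15_31804 (1.67 ± 0.27) and Mup19_82400 (0.97 ± 0.23). Mup15_31804 went from 861 to 1832 CPM in control males to 3604 to 4393 CPM. At 5 mg/kg, 14 of the 15 were lower in males and 9 passed (8.28% of all probes). The median log2 fold change was -1.16, against 0.10 over all tested probes. The most heavily read probe of the family, Mup13_70516, went from 45088 to 66967 CPM in control males to 12957 to 22370 CPM at 5 mg/kg (-1.59 ± 0.22). In females at 5 mg/kg all 15 were lower and 6 passed (3.66% of all probes), with a median of -0.72. The median of the 5 member probes was -2.08 in males and -0.999 in females. When the reads of all Mup probes were summed into 1 value, it differed from controls by 0.05 ± 0.20 in males given 0.5 mg/kg. At the highest dose, the difference was -1.57 ± 0.20 for males and -0.69 ± 0.20 for females. Between the sexes, the sum was -0.89 ± 0.20 in controls (adjusted p = 0.00395) and -0.01 ± 0.20 at 5 mg/kg (adjusted p = 1), where Mup20 and Mup3 were lower in females.

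Within groups, mice differed more in Mup3, Mup4 and Mup20 than in most probes of like level, whereas Mup21 lay near the middle of its like. The SD of log2 CPM around the group means was 0.60 for Mup3_29559, 0.56 for Mup3_80493, 0.42 for Mup4_82052, 0.71 for Mup20 and 1.58 for Mup21. The value of Mup20 was larger than that of 98.6% of the 1226 probes whose mean lay within 1 log2 unit of its own, and that of Mup3_29559 larger than that of 98.3% of 117. That of Mup21 was larger than that of 44.1% of 3357. High values were not particular to the members. Among the other Mup probes, Mup15_31804 lay above 97.7% of its like, and the well-read ones lay at 79.1% (Mup12_82212) or higher. The sparsely read Mup7_31616, Mup10_68906, Mup12_65786, Mup17_62847, Mup19_32084 and Mup19_68456 lay at 32.5% (Mup19_68456) or lower. The deviations from the group means were shared between probes. Over the 39 livers, Pearson's r of the deviations was 0.83 (Spearman's rho of 0.77) between the Mup3 probes and 0.70 (0.71) between Mup4 and Mup20. It was 0.58 (0.40) between Mup3_29559 and Mup4, and between 0.04 and 0.20 for the pairs with Mup21. For the 75 pairs of a member probe with another Mup probe it ran from 0.05 to 0.96, and the highest was that of Mup4 with Mup7_82401 (0.95). Each r is a description, since the probes share libraries, depth and scaling.

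Among 12405 other genes, those whose levels over the 39 livers were most like the mean of the 5 member probes were Aox3 (r = 0.90), an aldehyde oxidase, Cyp7b1 (0.90), an oxysterol hydroxylase known to be higher in male liver, C8a (0.88), a complement component, Cyp2f2 (0.86), a cytochrome P450, and Ttc39c (0.86). The 3 genes at the other end were Cyp2b13 (-0.88), Hao2 (-0.85) and Cyp2b9 (-0.85), all known to be higher in female liver. These values span both sexes and all doses, so they hold the differences between groups. With the group means removed, the highest r was 0.63 (Atp6v0c), Pqlc2 (0.62), Ndst1 (0.59) and Rnf41 (0.57) were also among the highest, and the lowest were Kif9 (-0.65), R3hdm1 (-0.61) and Pigu (-0.59). These 2 sets had no gene in common. The mean weighs the 5 probes equally, and Mup21, at very low levels, had the largest SD within groups (1.58). An r with the group means removed is therefore not one with the family as a whole. Several of the genes in that set were near the floor themselves: Pqlc2 (0 to 3.2 CPM), Kif9 (0 to 3.99), Rnf41 (0 to 13.6) and Pigu (0 to 15.1).

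The counts for the lists below stand beside 8.28% of all probes for males and 3.66% for females that passed at 5 mg/kg, in either direction, and no list was tested against them. Of 10 genes of growth hormone and STAT5 signalling, 0 passed in males at 0.5 mg/kg, where 2.38% of all probes passed. In males at 5 mg/kg 1 was lower, Igf1, the growth factor that growth hormone induces (-1.34 ± 0.23). In females at 5 mg/kg, 2 were lower, the growth hormone receptor Ghr (-0.89 ± 0.24) and the prolactin receptor Prlr (-0.87 ± 0.25). The median of the list at the highest dose was -0.40 for males and -0.62 for females, against 0.10 and -0.01 over all tested probes. Of 16 transcription factors known for Mup or sex-biased expression, 3 were lower in males at 5 mg/kg. They were Hnf4a (-0.80 ± 0.16), Cebpa (-0.81 ± 0.20) and Foxa1 (-0.79 ± 0.25), which are hepatocyte-enriched activators. In females at 5 mg/kg only Hnf4a of these 16 passed (-0.56 ± 0.16). The medians were -0.40 and -0.26.

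Of 15 genes known to be male-biased, 7 were lower and 1 higher in males at 5 mg/kg, with Cyp7b1 at -2.91 ± 0.48, the elongase Elovl3 at -3.32 ± 0.58 and the transporter Slco1a1 at -1.44 ± 0.31. The median of the list was -0.84. In females at 5 mg/kg, 2 were lower, among them the protease inhibitor Serpina1e (-1.92 ± 0.14), and 3 were higher, Cyp4a12a, Cyp4a12b and Cspg5. Of 20 genes known to be female-biased, 6 were higher and 0 lower in males at 5 mg/kg, while 1 was higher and 6 were lower in females, among them Cyp3a41a (-3.19 ± 0.38). The list medians were 0 in males, where 10 of the 20 genes had no read in at least 1 of the groups, and -1.69 in females. Between control females and control males, 3.49% of all probes differed in the edgeR test. Of these 20 genes, 17 were higher in control females (10 of the 20 had no read in a group). Prlr, which is also on the growth hormone list, was among them (2.03 ± 0.26, adjusted p = 1.64e-07). Of the 15 male-biased genes, 8 were lower in control females, including the complement component C6 (-2.99 ± 0.31, adjusted p = 8.52e-10). Of the 15, 6 had no read in a group.

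Lower levels at 5 mg/kg were also found among other secreted proteins. Of 8 other lipocalins tested, 6 were lower in males at 5 mg/kg, including C8g (-1.57 ± 0.17), Orm1 (-1.71 ± 0.23) and the retinol carrier Rbp4 (-1.09 ± 0.17), with a median of -1.33, and 2 were lower in females, C8g (-0.66 ± 0.17) and the precursor Ambp (-0.56 ± 0.10). Of 15 abundant proteins that hepatocytes secrete, 9 were lower in the males with the highest dose and 10 in such females, and the medians were -0.61 and -0.67. The inhibitor Serpina3k (-1.59 ± 0.17 in males) and fetuin Ahsg (-1.31 ± 0.15 in males) were among them. At 0.5 mg/kg in males, where 2.38% of all probes passed, 4 of these 15 were lower. Ahsg (-0.91 ± 0.15) and the fibrinogen chain Fgg (-0.70 ± 0.13) were among them, and 1 gene, Apoa2, was higher (0.53 ± 0.13). Of the marker lists for other cells of the liver, 2 of 6 stellate cell and fibroblast genes were higher in males at 5 mg/kg, and the summed list was 157 to 194 CPM there against 63.6 to 129 CPM in control males. Of 5 endothelial genes, 1 was lower in the same males. Their part in the Mup results was not tested.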

How the data were processed

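TempO-Seq counts of 40 mouse livers were analysed. The deposited values are raw read counts per probe, which the authors made with bcl2fastq 2.17.1.14 and Bowtie against mm10 per the labels, and they were not normalized. Each column of the table was assigned to its mouse through its label, and 0 columns had no sample. Groups were sex by dose. Mouse 355, at 6711981 reads, lay below the mean less 2 SD of the 40 totals (9680193) and was left out. Probes were filtered with filterByExpr (17877 kept), scaled by TMM and fitted in 1 model of the 39 libraries with the quasi-likelihood F-test of edgeR 4.0.16 in R 4.3.3, with Benjamini-Hochberg adjustment over all probes and a limit of 10%. The fit was tested on simulated data with 200 changed probes. CPM were taken on the TMM-scaled library total, and log2 CPM used a prior count of 2. Alternatives were DESeq2 1.42.0, its size factors in edgeR, scaling without the Mup probes, no filter and all 40 libraries. Further ones were only the groups compared, probes summed by symbol and leaving out each mouse. Counts in molecules, where reads were divided by the first peak of the read count distribution, were added after the data had been seen. Sequences came from RefSeq (promoters) and GENCODE M21 (coding), and were aligned with Biopython 1.88.

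The members and gene lists were chosen with earlier results of these data known. Named are all probes of the members, other Mup probes as context, up to 4 genes with the smallest p of each list and comparison, and the genes most and least like the members. A gene that this rule names is not reported here. Genes on the lists with no read in a group are counted but given no fold change, since that would depend on the prior count. Intervals, floors and molecule numbers cover counting error only. Nothing in the labels groups the mice further, so p-values measure the spread between animals.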

Additional observations from a re-analysis of the deposited data

Results flagged for a closer look

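Among the 40 groups of member probes (5 probes in 8 groups), 2 had a mouse far from the others of its group, as judged by the gap to the nearest mouse over the whole range of the group. About 1 in 20 groups is singled out in this way by chance. In control males, mouse 102 had 857 CPM on Mup3_80493, against a group median of 1371 CPM. In control females, mouse 152 had 1548 CPM on Mup4_82052, against a group median of 4524 CPM, and the same mouse had the lowest share of reads on all Mup probes of its group (3.39%).

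The interaction term of the edgeR fit passed the 10% limit for 1 of the Mup3 probes. For Mup3_29559, the female change minus the male change (in log2 units) was 1.90 at 0.5 mg/kg, and 2.21 at 5 mg/kg. Mup3_80493, at 0.61 and 1.26, did not pass at either dose. The gene was chosen with the dose comparisons known, so these values are a description and not independent evidence. The median over all tested probes of the term at 5 mg/kg was -0.16 with TMM scaling and -0.07 with the size factors of DESeq2.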

How the results depend on the processing

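No paired analysis was possible because the groups share no animal numbers. Among single values of the member probes, 481 of those under settings other than leaving out a mouse kept their side of the 10% limit, 15 passed it newly and 11 no longer passed it. For leaving out 1 mouse, these numbers were 764, 5 and 16. No value that passed the limit in the main fit or in the alternative reversed its direction. Values that passed in neither could change sign and were counted as unchanged. Mup21 in females at 5 mg/kg, for example, was -0.77 in the main fit and up to 0.16 with 1 mouse left out. The number of member genes past the limit was less stable. With all 40 libraries it was 0 for males at 0.5 mg/kg (1 in the main fit), 1 for females at 5 mg/kg (2), 1 for females minus males at 5 mg/kg (2), and 0 for the difference in response between the sexes at 0.5 and at 5 mg/kg (1 each). With only the groups compared it was 2 for males at 0.5 mg/kg, 1 for females at 5 mg/kg and 1 for females minus males at 5 mg/kg. With no filter on low counts it was 3 for males at 0.5 mg/kg and 3 for the difference in response at 0.5 mg/kg. Smaller changes in the number were left out of this list. Among them, Mup4 no longer passed in edgeR with all 40 libraries for females minus males in controls (adjusted p = 0.365) and at 0.1 mg/kg (0.199). The cause of these shifts was not tested. Leaving out 1 mouse gave 1 to 3 genes for females minus males at 5 mg/kg, with the 3 reached without mouse 453. It gave 0 to 1 for the difference in response at 0.5 mg/kg, with 0 without mouse 103, 152, 153, 154, 303, 305 or 353, and the same numbers as the main fit elsewhere. Taking a prior count of 0.5 moved the SD of Mup21 from 1.58 to 1.95. Spearman's rho was 0.77 between the Mup3 probes, 0.40 between Mup3_29559 and Mup4_82052, and 0.27 between Mup3_80493 and Mup4_82052, where Pearson's r was 0.83, 0.58 and 0.48. Depth limits Mup21, at 19.3 molecules per library or fewer, and Mup5, at 0 reads.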

Other observations

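In males at 0.1 mg/kg, mice 204 and 205 had ratios of Mup3_29559 to Mup3_80493 of 4.63 and 4.76, near the 4.02 to 4.53 of the males at 0.5 mg/kg, while the 3 other mice of their group had 7.22 to 10.1. The ratio of Mup3_29559 to Mup4_82052 was also lowest of the group in these mice, at 0.65 and 0.598. Mouse 205 had 4370 CPM on Mup15_31804, the highest of its group, where males at 0.5 mg/kg had 3604 to 4393 CPM. These mice were picked out after their values had been seen, and no test was made of them.

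The ratio of Mup20 to Mup4 within a library was 0.0221 to 0.0755 in control males and 0.0515 to 0.262 in males at 5 mg/kg, against 0.0181 to 0.0245 in control females and 0.02 to 0.0286 in females at 5 mg/kg. Mouse 355, left out for its depth, had 0.302% of its reads on the Mup probes, below the 2.75% of the lowest of the other 39 libraries.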
